A study of Caenorhabditis elegans with 2 samples.

Results

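The tRNA genes on the X chromosome of Caenorhabditis elegans were examined for peaks of MDT-29, mapped by chromatin immunoprecipitation and sequencing (ChIP-seq) in whole L4 larvae. All genes annotated as tRNA on X were taken, which gave 276 of the 612 nuclear tRNA genes, or 45.1%. No measured value decided which genes were members, though this set was chosen with earlier results of these data known. A gene was called bound when the summit of a main peak, a peak of the authors' list made from both samples, lay within 250 bp of it. On this rule 107 of the 276 genes were bound, or 38.8% (95% exact Clopper-Pearson interval 33.0 to 44.8), beside a share of 39.2% over all nuclear tRNA genes, to which X itself contributes. The share was close to that on the autosomes together, where 133 of 336 tRNA genes were bound, or 39.6% (34.3 to 45.0). Single autosomes ranged from 23.1% on V to 50.9% on II. The difference between X and the autosomes was not tested.

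The worms were of strain RJP4521, in which a degron and green fluorescent protein (GFP) are inserted by CRISPR at the mdt-29 gene on chromosome III, and they were collected at 48 hours of age after synchronisation as starved L1 larvae. The labels spell the tagged gene "mt-29" in the strain name and name the tag both as Degron::GFP and as eGFP. There was 1 group of 2 samples, given as biological replicates 1 and 2, with no second genotype, treatment or stage, so a peak is described by where it lay and not by a change. The protein was recovered from all tissues together, and in which cells a gene was bound cannot be told apart from these data. The replicate 1 list held 777 peaks, the replicate 2 list 1050 and the main list 1705, and read depth is unknown. An untagged strain was not used here, so recovery of tRNA genes without MDT-29 was not tested. The notes deposited with the lists name a further input without its role, so it is not known against what the signal of a peak was measured.

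Transfer RNAs carry amino acids to the ribosome, and the set of tRNAs that take the same amino acid is called an isotype. Nuclear tRNA genes are transcribed by RNA polymerase III, whose factor TFIIIC binds the A box and the B box inside the gene and places TFIIIB just upstream of it. Mediator, to which MDT-29 belongs, is known as a coactivator of RNA polymerase II, the enzyme that makes messenger RNA. In C. elegans many tRNA genes exist as identical copies scattered over the genome, and many lie on X.

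The 2 genes below are examples from among the strongest bound genes, though not the strongest of all, and both hold the B box core. They encode tRNA-Ala (F15G9.t1, chrX:9743589-9743660, plus strand) and tRNA-Val (R04D3.t2, chrX:13307034-13307106, plus strand). Sequences are from the RefSeq genome of build WBcel235, written 5' to 3' along the gene, and capitals mark the anticodon and then the core of the B box.
F15G9.t1: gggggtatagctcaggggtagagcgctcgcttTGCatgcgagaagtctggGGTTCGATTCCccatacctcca
R04D3.t2: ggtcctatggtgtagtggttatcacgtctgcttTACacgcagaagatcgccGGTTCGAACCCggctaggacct
The core searched for was GGTTCGANNCC on either strand, and it was found in 177 of the 276 genes. It was in 72 of the 107 bound genes (67.3%) and in 105 of the 169 without a peak (62.1%), so the match hardly set the 2 classes apart. Of the 29 RefSeq tRNA pseudogenes on X, 9 held it. So did 226 of the 246096 windows of 72 bp on X, or 0.0918%. These windows include the tRNA genes themselves, so the share is not one outside them. RNA polymerase III ends transcription at a run of 4 T, and such a run was found within 40 bp downstream in 273 of the 276 genes. How often 40-bp stretches of X in general hold one was not counted.

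Identical genes could differ in binding, as the next pairs show. In each the whole gene is in capitals, with 60 upstream and 20 downstream bases in lower case, and the gene itself is the same in both members. ZK563.t1 (tRNA-Thr, chrX:3371422-3371493, minus strand) was bound and F43E12.t1 (chrX:7176983-7177054, minus strand) was not. R04A9.t1 (tRNA-Gln, chrX:410391-410462, plus strand) was bound and H08J11.t5 (chrX:9090627-9090698, minus strand) was not, and neither of these holds the exact B box core.
ZK563.t1: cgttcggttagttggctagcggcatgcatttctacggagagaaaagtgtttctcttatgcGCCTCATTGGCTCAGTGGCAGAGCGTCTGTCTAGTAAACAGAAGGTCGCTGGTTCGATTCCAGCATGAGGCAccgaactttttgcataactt
F43E12.t1: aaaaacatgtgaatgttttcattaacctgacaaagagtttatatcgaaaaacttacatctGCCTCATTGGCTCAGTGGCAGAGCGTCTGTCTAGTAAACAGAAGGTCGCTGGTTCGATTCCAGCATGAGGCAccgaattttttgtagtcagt
R04A9.t1: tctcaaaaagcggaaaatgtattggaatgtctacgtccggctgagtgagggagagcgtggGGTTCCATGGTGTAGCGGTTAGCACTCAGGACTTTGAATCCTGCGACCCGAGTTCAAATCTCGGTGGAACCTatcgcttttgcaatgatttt
H08J11.t5: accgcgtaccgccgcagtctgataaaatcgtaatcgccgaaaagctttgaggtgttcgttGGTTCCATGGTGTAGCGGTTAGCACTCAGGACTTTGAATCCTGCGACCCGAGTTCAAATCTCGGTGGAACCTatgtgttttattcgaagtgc
Outside the gene the copies had little in common. Of the 60 upstream bases, 15 were the same at the same place in the Thr pair and 16 in the Gln pair. G and C made up 46.7% of the upstream bases of ZK563.t1 and 26.7% of those of F43E12.t1, while the Gln copies had equal shares. The ranked lists deposited for the single samples also hold the peaks below the authors' threshold, with a signal, the authors' measure of a peak's strength, for each. In these lists ZK563.t1 had a signal of 46.1 in replicate 1 and 102 in replicate 2, and no summit lay within 250 bp of F43E12.t1 in either. R04A9.t1 had 33.8 and 71.9, against 12.2 and 21.6 at H08J11.t5. The neighbouring genes H08J11.t1 and H08J11.t4 carried the same values, and a summit within 250 bp of all of these lies nearest to H08J11.t1. The values are thus not particular to H08J11.t5. H08J11.t3, another identical copy nearby, was bound.

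At X tRNA genes lay 95 main peaks, of which 80 reached 1 gene and 15 reached 2. These were 27.3% (22.7 to 32.3) of the 348 main peaks on X, against 121 of 1357 on the autosomes, or 8.92% (7.45 to 10.6). X also held more tRNA genes, 15.6 per Mb against 4.07 per Mb on the autosomes, and the share of tRNA genes bound was alike, as given above. Bases within 250 bp of a main summit made up 0.948% of X.

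The peaks were of middling strength. Their median signal was 106, from 2.19 to 338, beside 98.2 for the other main peaks on X and 99.5 for the whole list, whose strongest peak had 4953. Above the median signal of the whole list lay 56 of the 95, or 58.9%, and 1 was among its 100 strongest peaks. All but 1 of the peaks, 94, were 320 bp wide.

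The strongest peak lay between divergent genes for tRNA-Glu and tRNA-Gly, M02F4.t2 and M02F4.t1, at chrX:3036052-3036211. Its main signal was 338, with 165 in replicate 1 and 177 in replicate 2. The next, at chrX:9743500-9743819 in an intron of him-4, reached the tRNA-Ala genes F15G9.t1 and F15G9.t2 and had 245, with 138 and 118. These 2 peaks were above all others at X tRNA genes in replicate 1.

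The third was at C04A11.t1, a tRNA-Leu gene with an intron (chrX:13665436-13665755), with 217, and 80.0 and 119 in replicates 1 and 2. The peak at F41D9.t3, a tRNA-Asn gene in an intron of sulp-3 (chrX:8404345-8404664), had 205, with 87.3 and 118. The peak at R04D3.t2, the tRNA-Val gene printed above (chrX:13306919-13307238), had 197, with 77.7 and 114. In each of these 3 the replicate 2 value was the higher.

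Next in order came C28G1.t1 (tRNA-Glu, signal 186), which overlaps an exon of C28G1.2, and C42D8.t1 (tRNA-Ile, 178). The tRNA-Tyr gene C02B4.t2 in an intron of nhr-17, a nuclear hormone receptor gene, had 172. Then followed 3 peaks that each served a divergent pair of genes of the same isotype, F46G11.t1 and F46G11.t2 (tRNA-Pro, 169), C53C7.t1 and C53C7.t2 (tRNA-Ser, 167), and T10B10.t1 and T10B10.t2 (tRNA-Gly, 165). The last 4 of the 15 strongest were K09A11.t1 (tRNA-Tyr, 159), ZK563.t1 (tRNA-Thr, 154), F17H10.t1 (tRNA-Gly, 153), in an intron of the sorting nexin gene snx-17, and C33G3.t2 (tRNA-Lys, 151). Of these 15 peaks, 14 were called in each sample on its own, and the peak at ZK563.t1 was called in replicate 2 only.

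The weakest end held 3 peaks of signal under 10, at C49F5.t1 (tRNA-His, 5.34), T26C11.t1 (tRNA-Glu, 3.18) and R11.t1 (tRNA-Tyr, 2.19). All 3 are second summits, beside a stronger main peak at the same gene of 79.1, 95.6 and 145 respectively.

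The samples did not give the same number of bound genes. In replicate 1 alone 40 of the 276 genes were bound, or 14.5%, beside 14.9% of all tRNA genes, and in replicate 2 alone 77, or 27.9%, beside 28.9%. Of the 107 genes bound in the main list, 29 were bound in both single-sample lists, 41 in that of replicate 2 only, 6 in that of replicate 1 only and 31 in neither. In the authors' conservative list 100 X genes were bound, or 36.2%, beside 35.6% of all tRNA genes. A further 11 genes were bound in a list of at least 1 sample and not in the main one, which brings the number bound in the main list or that of either sample to 118.

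Over the peaks with a value in both samples, 80 of 93 were higher in replicate 2. The 3 second summits named above carry the values of the stronger peak beside them, and without them 77 of 90 were higher. The median signal was 45.5 in replicate 1 (27.2 to 165) and 61.9 in replicate 2 (28.2 to 177). The ratio of replicate 2 to replicate 1 had a median of 1.46, from 0.530 to 3.11, against 1.25 over the 1675 main peaks with both values. Whether signal is scaled between samples is not known, so the ratio includes any difference in scale. The main signal was close to the sum of the single-sample values, with a median ratio of 1.00.

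**Figure D1:**
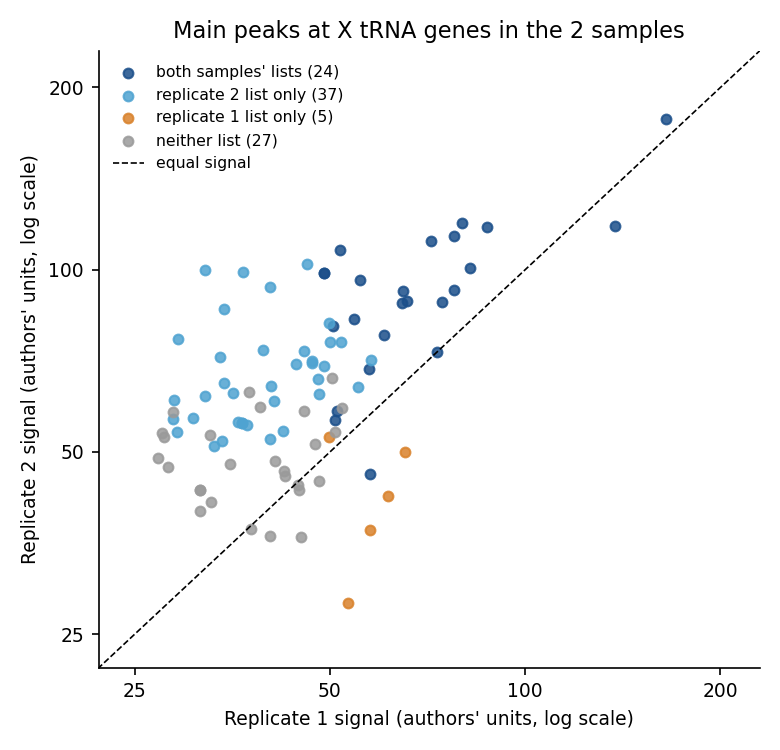
Signal of each of the 93 main peaks at X tRNA genes that had a value in both samples, replicate 1 on the horizontal and replicate 2 on the vertical axis, both in the authors' units on log scales. Colours give the thresholded single-sample lists that hold the peak, the dashed line marks equal signal, and 80 of the 93 points lie above it.

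Genes that fell short of the call often had a summit in the ranked lists, which also hold peaks below the authors' threshold. In the ranked lists, bound genes had a median of 46.1 in replicate 1 and 62.7 in replicate 2, values that the call itself selected. Genes without a main peak had a ranked summit in replicate 1 in 114 of 169 cases, with a median of 22.5, and in replicate 2 in 131 cases, with a median of 32.5. Both samples gave one at 96 of these genes and neither did at 20. At the 29 pseudogenes, 11 had a ranked summit in replicate 1 (median 19.7) and 9 in replicate 2 (median 24.8), and 0 were bound in the main list, which allows a share of up to 11.9% (exact interval). That count rests in part on the authors' removal of peaks. Within 250 bp of the pseudogene ZK380.t2 lay a peak that reached the main list's lowest score and was taken out. Of these 29, 17 had under 75% unique 50-base stretches in the gene and 100 bp on each side, against 16 of the 276 genes. The part of mappability in the lack of peaks at pseudogenes was not tested. On the autosomes 6 of 180 pseudogenes were bound, or 3.33% (1.23 to 7.11), yet 97 of the 180 had a ranked summit in replicate 1 and 101 in replicate 2. Of the 203 autosomal tRNA genes without a main peak, 131 had one in replicate 1 and 153 in replicate 2.

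**Figure D2:**
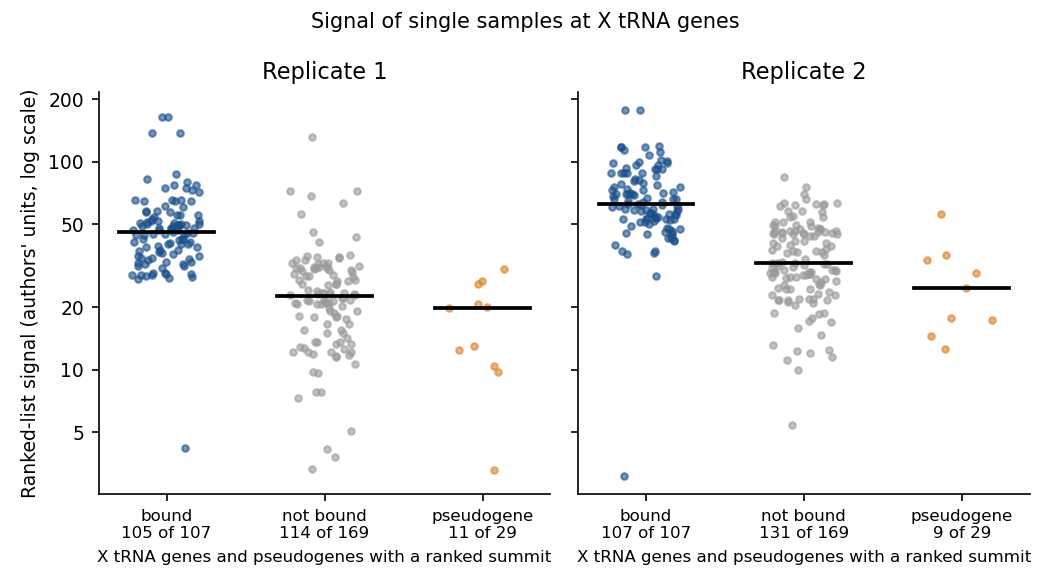
Ranked-list signal within 250 bp of bound X tRNA genes, X tRNA genes without a main peak and X tRNA pseudogenes, for replicate 1 (left) and replicate 2 (right), in the authors' units on a log scale. Each point is a gene, the black line is the median, and the counts under each class give how many genes had a ranked summit; the bound genes have medians of 46.1 and 62.7.

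Genes close to the edge of the window show what the 250-bp limit decided. H08J11.t2 (tRNA-Gln) at 228 bp from the summit and F28H6.t7 (tRNA-His) at 202 bp were inside. In replicates 1 and 2 the ranked signals were only 4.18 and 3.07 at H08J11.t2, and 28.7 and 58.3 at F28H6.t7. The main summit that reached H08J11.t2 lies inside H08J11.t3. C28G1.t5 (no isotype given) at 260 bp, C18A11.t2 (tRNA-Arg) at 282 bp, T06H11.t3 (tRNA-Arg) at 285 bp and K01A12.t5 (tRNA-Cys) at 290 bp were outside. Of these C18A11.t2 had a ranked signal of 131 in replicate 1 and 41.5 in replicate 2, and it was bound in the list of replicate 1.

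Summits lay on or close to the genes. Of the 107 bound genes, 59 had the nearest summit inside the gene, 38 upstream and 10 downstream, and for 88 the summit was within 50 bp. Counted from the 5' end along the gene, the median position was 17 bp, with quartiles of -20 and 50.5. Neighbours blur this, since 1 peak may serve several genes. For the 57 bound genes that stood alone, the median was 24 bp, from -33 to 139, with 36 inside the gene, 15 upstream and 6 downstream.

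**Figure D3:**
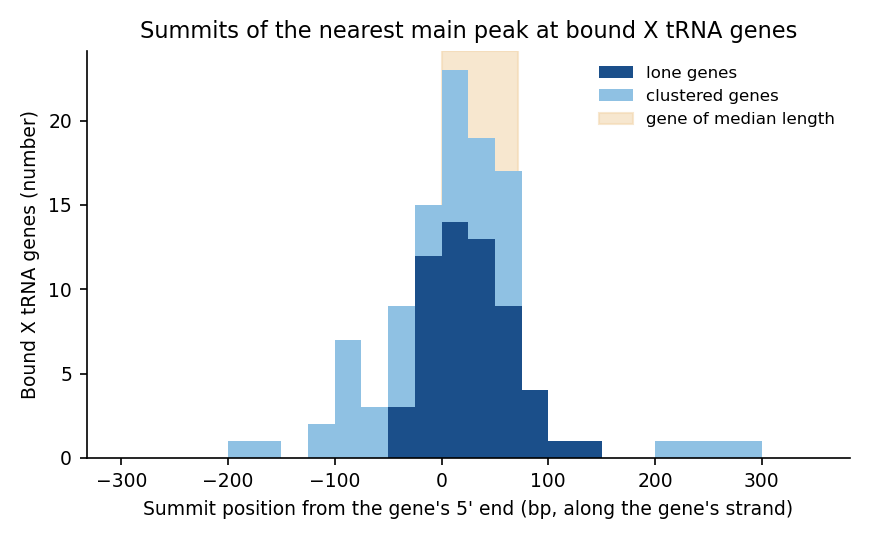
Position of the nearest main summit from the 5' end of each of the 107 bound X tRNA genes, in bp along the gene's strand, in bins of 25 bp, with lone and clustered genes stacked. The shaded band is a gene of median length; the summits of lone genes lie between -33 and 139 bp, and the positions farther out belong to clustered genes.

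Bound genes were found for all 20 standard isotypes. The share was highest for tRNA-Val, at 10 of 14 genes, or 71.4% (41.9 to 91.6). The share for tRNA-Ala came next, at 9 of 13 genes, or 69.2% (38.6 to 90.9). The share bound was lowest for tRNA-Met, whose members start or extend the chain at AUG, with 1 of 8, or 12.5% (0.316 to 52.7). Then came tRNA-Phe with 1 of 6 and tRNA-Arg with 5 of 27, or 18.5% (6.30 to 38.1). The intervals of most isotypes overlap, and no difference between isotypes was tested. On the autosomes the shares were 8 of 17 for Val, 10 of 21 for Ala and 7 of 17 for Arg, closer to the overall share than on X.

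Within tRNA-Arg the bound genes all had the anticodon ACG (given in DNA letters), 5 of 13. The other Arg genes on X, 7 with TCG, 4 with TCT, 2 with CCT and 1 with CCG, were without a main peak, while 3 of 3 autosomal genes with TCG were bound. Among tRNA-Ala, 3 of 3 genes with TGC and 6 of 9 with AGC were bound. Among tRNA-Val, 6 of 10 with AAC, 2 of 2 with CAC and 2 of 2 with TAC were bound. Of the tRNA-Glu genes, 5 of 8 with TTC and 4 of 15 with CTC were bound.

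The strongest bound gene differed widely between isotypes. Beside those already named, tRNA-Gln was led by R04A9.t1 (signal 129), tRNA-His by C06G1.t1 (125), tRNA-Arg by C03A3.t1 (114), tRNA-Asp by T14F9.t1 (114) and tRNA-Cys by F42D1.t1 (110). For 3 isotypes a single gene was bound, and its peak was modest: C03B1.t1 for Trp (96.7, with 35.4 and 62.7 in replicates 1 and 2), C02F12.t1 for Met (89.8, with 32.1 and 61.9) and F32A6.t1 for Phe (85.8, with 29.1 and 54.0). Each of these 3 was in the thresholded list of replicate 2 and not in that of replicate 1. For 3 members RefSeq gave no isotype, C28G1.t5, F47E1.t3 and K02D3.t1, and none of them was bound in the main, conservative or single-sample lists. The anticodon read from the sequence matched the named isotype in 271 of the other 273, the exceptions being ZK678.t2 and ZK678.t5.

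**Figure D4:**
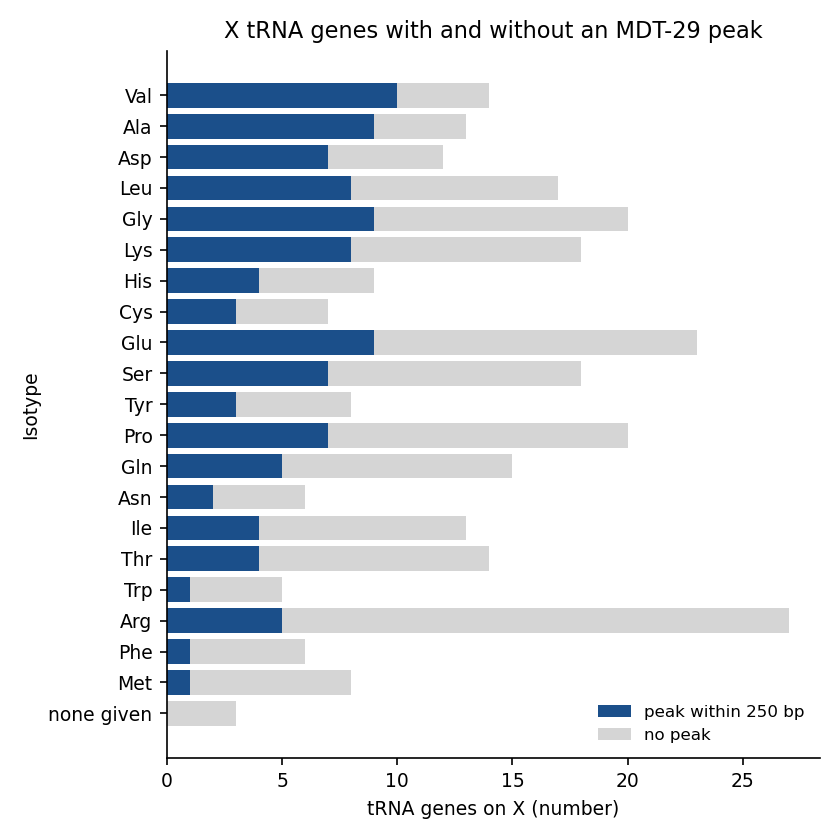
Number of X tRNA genes of each isotype with a main peak within 250 bp (blue) and without (grey), ordered by the share bound. Val has 10 of 14 and Ala 9 of 13, and Arg, with 27 genes the most numerous, has 5.

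Introns inside tRNA genes, which are cut out after transcription, were present in 12 members, all others having a single exon. Bound were 4 of the 12, or 33.3%, beside 38.8% of all X tRNA genes. They were the tRNA-Tyr genes C02B4.t2, K09A11.t1 and R11.t1, which share 1 mature sequence, and the tRNA-Leu gene C04A11.t1. All 4 were bound in the conservative list and in both single-sample lists too. Their main signals were 172, 159, 145 and 217, all above the median of 109 over bound genes, while the other 8 genes of this structure were not bound in any of these lists. The autosomal genes with an intron did not share the high signal. Of these 17, 4 were bound, with a median of 107 beside 108 over all bound autosomal tRNA genes.

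Families of identical genes were compared next, since their members encode the same mature tRNA, base for base. The 276 genes held 104 distinct sequences, and 34 of these were present on X in 2 or more copies. In 26 of the 34 some copies were bound and others not, in 2 all were bound and in 6 none. Of the 20 families with at least 5 copies on X, with 163 genes and 71 of them bound, 19 were mixed. Over all X tRNA genes 107 of 276 were bound. At shares of this size a family with many copies readily holds both kinds, and no expected number of mixed families was worked out.

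The largest was a tRNA-Pro family with 13 copies on X, of which 5 were bound with signals from 77.3 to 169. A tRNA-Glu family with 12 copies had 4 bound, from 73.0 to 338, and a tRNA-Gly family with 11 copies had 5, from 84.6 to 338, the upper value in each being the shared M02F4 peak. A tRNA-Arg family with 10 copies, all of them on X, had 5 bound, from 80.5 to 114. A tRNA-Leu family with 9 copies, also wholly on X, had 5, from 70.2 to 113. The tRNA-Thr family of the printed pair had 7 copies, and 2 of them were bound, ZK563.t1 at 154 and R11B5.t1 at 91.3.

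The families without mixture were small. All copies on X were bound for tRNA-Ala with anticodon TGC, 3 of 3, and for tRNA-Val with CAC, 2 of 2. None of 5 copies of a tRNA-Phe family was bound on X, while 3 of its 5 autosomal copies were. Of these X copies, T25D1.t2 and T27B1.t1 had from 30.8% to 52.7% unique 50-base stretches, which can limit what reads show there. Another, T28B4.t1, had a ranked signal of 14.2 in replicate 1 and 57.2 in replicate 2. The difference between X and the autosomes in this family was not tested. None of 3 copies of a tRNA-Met family was bound, against 2 of its 6 autosomal copies. The other families without a bound copy on X were 3 of tRNA-Arg and 1 of tRNA-Gln.

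**Figure D5:**
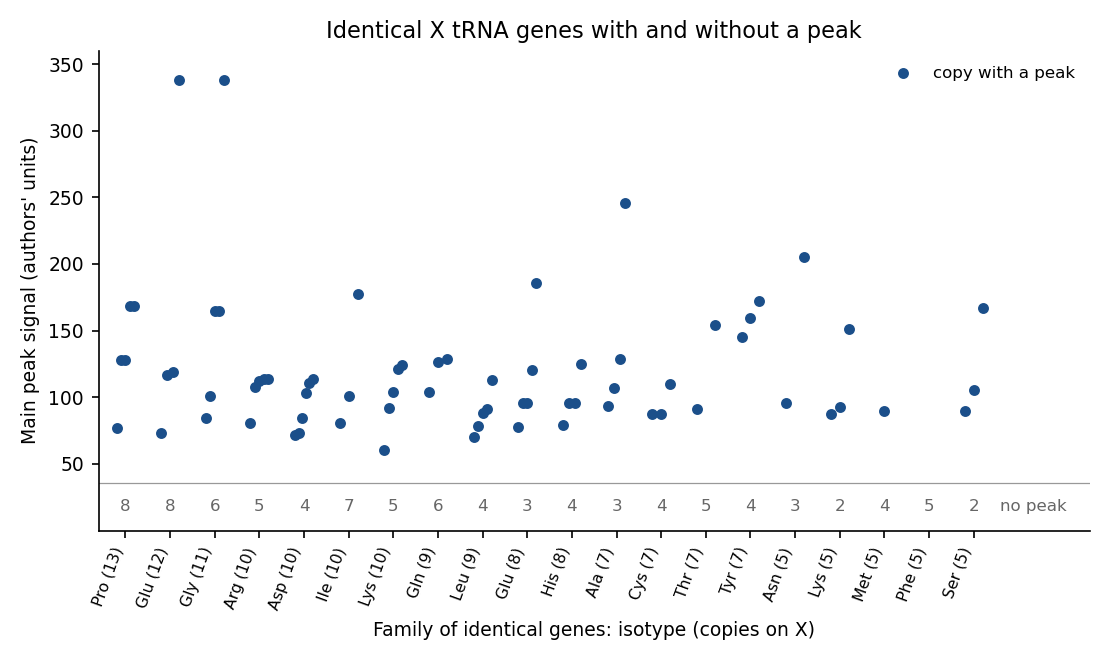
Main peak signal, in the authors' units, of each bound copy in the 20 families of identical tRNA genes with at least 5 copies on X, with the number of copies without a main peak in grey below the line. In 19 families both kinds occur, and the Phe family has 5 copies and no bound one.

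The share bound was higher in classes with more copies in the genome. It was 24.5% (13.8 to 38.3) of 53 genes with a single copy, 31.2% of 32 with 2 to 5 copies, 40.8% of 49 with 6 to 10, 43.9% of 98 with 11 to 20 and 47.7% (32.5 to 63.3) of 44 with over 20. On the autosomes it was 16.9% for a single copy and 56.4% for over 20 copies. Reads from repeated sequence may not map to 1 place, and the way the authors treated them is not given in the sources used here. Of the 16 members for which under 75% of the 50-base stretches in the gene and 100 bp on each side occur once in the genome, 3 were bound, against 104 of the other 260. The part of mappability in these shares was not tested.

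Clusters, here genes at most 1000 bp from the next tRNA gene, held 135 of the members in 54 groups, and 141 stood alone. Of the clustered genes 37.0% (28.9 to 45.8) were bound and of the lone genes 40.4% (32.3 to 49.0), so that the intervals overlap widely. On the autosomes 53 of 101 clustered and 80 of 235 lone genes were bound. Of the 39 clusters with 2 genes, both were bound in 12, 1 in 8 and none in 19, and in part this reflects that 1 summit can reach both. The 57 genes in clusters of 3 or more were bound in 31.6% (19.9 to 45.2) of cases.

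The largest clusters were bound in part. The F22F1 cluster at chrX:8154445-8156707, with 6 genes for tRNA-Ser, Asp, Met and Ile, had a peak at F22F1.t4 and F22F1.t5. The F28H6 cluster at chrX:14135045-14137010, with 6 tRNA-His genes, had one at F28H6.t2 and F28H6.t7. In that cluster a median of 27.1% of the 50-base stretches were unique, which limits what reads can show there. The K01A12 cluster (chrX:8623603-8624532) and the H08J11 cluster (chrX:9090627-9091628), with 5 genes each, had 2 bound genes each, K01A12.t2 and K01A12.t4, and H08J11.t2 and H08J11.t3. None of the genes in these 4 clusters was bound in a single-sample list. Of the 9 clusters with 3 genes, 6 had no bound gene in the main list and 2 had 2. The remaining one, the tRNA-Pro genes of C16B8 (chrX:3969556-3970336), had all 3 bound.

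By place within other genes the shares had overlapping intervals. Of 180 intergenic members 64 were bound, or 35.6% (28.6 to 43.0), and of 95 in introns of protein-coding genes 42, or 44.2% (34.0 to 54.8). In introns, 19 of 50 genes on the host's strand and 23 of 45 on the opposite strand were bound. On the autosomes the order of the shares was the other way, with 60 of 139 intergenic and 69 of 188 intronic genes. The only member in an exon, C28G1.t1, was bound. The 42 bound intronic genes lay in 35 host genes.

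The 100 bases on each side of bound members held more G and C, with a median of 35.5% (quartiles 32.5 and 38.5), than those of members without a peak, with 32.5% (29.5 and 36.5). On the autosomes, too, the median was higher at the bound genes. These differences are smaller than the quartile range within each class, and they were not tested.

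Genes for the proteins that make and process tRNAs were looked up as a list of 25, with RNA polymerase III subunits, the factors TFIIIB and TFIIIC, the repressor mafr-1 and enzymes of tRNA processing, modification and export. All 25 were in the annotation, and 2 had a main summit within 500 bp of a 5' end, against 3.54% of the 19973 nuclear protein-coding genes. These were rpc-2, a large subunit of RNA polymerase III (signal 97.9, with 29.9 in replicate 1 and 65.5 in replicate 2), and rpac-19, a subunit that RNA polymerases I and III share (129, with 67.6 and 48.0). The other 23, among them rpc-1, brf-1 and mafr-1, had none.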

How the data were processed

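The members and gene lists were chosen with earlier results of these data known. Per the labels, chromatin was sonicated to 200 to 800 bp and the assembly was ce11, which is WBcel235. The aligner and peak caller are not given in the sources used here. The authors deposited peak lists with a signal value, measuring strength, and a score, scaled from the irreproducible discovery rate (IDR). The ranked lists also hold the −log10 of the global IDR, as deposited. The thresholded main list held only peaks with a score of 830 or more, and 59 peaks at or above that score, 9 of them on X, were taken out by the authors, none within 250 bp of a member.

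Genes came from Ensembl annotation release 115, isotypes, pseudogenes and bases from RefSeq (WBcel235). The summit was the start plus the summit offset, counted from 1. A gene took the summit of its strongest main peak within 250 bp, which at the bound genes was also the nearest. Single-sample signal for a gene was the highest value with a summit within 250 bp in the ranked list, and for a peak the highest among overlapping peaks (1 bp or more). A peak was in a sample's list when it overlapped a thresholded peak there. Named were the 15 strongest peaks, the strongest bound gene of each isotype, the largest clusters, genes whose summit lay 200 to 300 bp away, bound members of the machinery list, and members of small counts. The other genes were chosen after their values were seen.

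With 1 group, no test was made, and samples were compared side by side. Shares have exact Clopper-Pearson 95% intervals, which count genes as independent although neighbours share peaks, and cover no variation between worms. Depth per sample is unknown. The window rule was tested on simulated data with planted peaks. Python 3.11.15, numpy 2.4.6, pandas 2.3.3, scipy 1.17.1 and matplotlib 3.10.9 were used. Alternatives were other lists, thresholds, windows, overlap rules, cluster gaps and members.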

Additional observations from a re-analysis of the deposited data

How the results depend on the processing

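The 107 bound X genes, the 133 bound autosomal genes and the 95 peaks depended most on the list. A global IDR of 0.001 or lower left 52, 56 and 43, and raised the median signal from 106 to 129. Main peaks at or above the list's median signal gave 68, 83 and 56, with a median of 126. The single-sample lists, each leaving out a replicate, gave 40 to 77, 51 to 100 and 32 to 68. With the summit inside the gene the counts were 59, 81 and 59. Of the 104 distinct sequences, 47 had at least 1 bound copy, a count that favours sequences with many copies. Under the remaining alternatives, namely the conservative list, the list without peaks taken out, windows of 100 and 500 bp, the nearest gene only and interval overlap, the counts stayed within 1.5 times. So did the count of 104 among genes with 75% or more unique 50-base stretches, an alternative chosen after seeing the data. The conservative list shared 94 of its 100 bound X genes with the main list. Of the 36 bound genes at the 15 strongest peaks, in the largest clusters, near the window edge or strongest of their isotype, 15 to 36 were bound under each alternative. With cluster gaps of 500 and 5000 bp, 38.9% and 38.5% of clustered and 38.7% and 39.2% of lone genes were bound. Leaving out pseudogenes gave no value, since none is among the members. No paired analysis was possible because there was 1 group. Unknown depth limits what the absence of a peak shows.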

Other observations

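Position along X and nearby protein-coding genes gave no clear contrast. In the middle part of X, the part left when 25% of its length is taken off each end, 53 of 151 tRNA genes were bound, or 35.1%, and in the outer parts 54 of 125, or 43.2%. A protein-coding transcript started within 500 bp of 33 members, and 14 of them were bound, or 42.4% (25.5 to 60.8), against 93 of 243 farther away, or 38.3% (32.1 to 44.7). Of the 23 members over 5000 bp from such a start 4 were bound, or 17.4% (4.95 to 38.8).

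The 11 genes bound in a list of at least 1 sample but not in the main list included ZK899.t1 (tRNA-Pro), which was bound in the lists of both samples and in the conservative list and yet lay 1855 bp from the nearest main summit.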
